A study of Mus musculus with 12 samples.

Results

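The adult myosin heavy chains of skeletal muscle, Myh4, Myh1, Myh2 and Myh7, were followed in RNA-seq of mouse gastrocnemius. These 4 genes were selected by symbol, and all 4 were found among the 22273 gene symbols of the deposited gastrocnemius files. Each was above 0 in all 4 libraries. The libraries came from male C57BL/6J mice of the genotypes GRf/f and GRmKO, each given vehicle or corticosterone (CORT, the main glucocorticoid of rodents). All mice carried Nr3c1, the gene of the glucocorticoid receptor (GR), with exon 3 floxed. GRf/f mice had no Cre, and GRmKO mice carried Acta1-Cre, which is driven by the skeletal actin promoter and removes functional GR from myofibres and not from the other cells of the muscle. From 8 weeks of age the mice drank 1% ethanol in water, with CORT at 100 μg/mL or without it (vehicle), for 4 weeks. Each library was 1 pool of RNA from 3 mice, so every group had 1 library, no value had a replicate and no difference between groups could be tested. The study asked how GR of skeletal muscle takes part in the effects of excess glucocorticoid, and here the comparisons were CORT against vehicle within a genotype and GRmKO against GRf/f within a treatment.

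Each muscle fibre is built mainly around 1 myosin heavy chain, the motor protein of the thick filament, and the isoform largely sets how fast the fibre contracts. In mice Myh4 encodes the fastest isoform, of type IIb fibres, Myh1 that of type IIx fibres and Myh2 that of fast oxidative type IIa fibres, whereas Myh7 encodes the slow isoform of type I fibres. Gastrocnemius is a mostly fast muscle, and fast glycolytic fibres are known to be more prone to glucocorticoid-induced wasting than slow fibres.

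The 3 fast genes lie next to each other on chromosome 11 (build GRCm38), all on the plus strand, in the order Myh2 (67171027 to 67197517), Myh1 (67200052 to 67224575) and Myh4 (67238029 to 67260446). Myh7 lies on the minus strand of chromosome 14 (54970684 to 54994626). The deposited entry of each gene bears the identifier of 1 transcript, with 39 exons and 6016 bases for Myh4, 39 exons and 6012 bases for Myh1, 39 exons and 6018 bases for Myh2, and 41 exons and 6135 bases for Myh7. Because the 4 lengths are so close, the shares given below hardly differed when computed per kilobase. To show what the fast genes have in common upstream and Myh7 does not, the 250 bases before a RefSeq start site of each gene are given 5′ to 3′ (RefSeq, GRCm38.p6). Capitals mark the longest run of bases that the windows of all 3 fast genes share.

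Myh2, chr11:67170777-67171026, plus strand: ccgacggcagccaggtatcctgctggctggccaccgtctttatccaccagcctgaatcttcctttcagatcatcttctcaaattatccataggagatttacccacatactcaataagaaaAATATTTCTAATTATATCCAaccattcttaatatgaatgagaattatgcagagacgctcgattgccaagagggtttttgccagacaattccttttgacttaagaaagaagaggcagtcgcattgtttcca

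Myh1, chr11:67199852-67200101, plus strand: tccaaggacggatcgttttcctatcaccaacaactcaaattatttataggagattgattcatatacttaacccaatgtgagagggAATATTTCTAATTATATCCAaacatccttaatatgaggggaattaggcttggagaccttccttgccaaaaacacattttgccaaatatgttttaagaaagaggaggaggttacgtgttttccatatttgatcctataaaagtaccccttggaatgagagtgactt

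Myh4, chr11:67237562-67237811, plus strand: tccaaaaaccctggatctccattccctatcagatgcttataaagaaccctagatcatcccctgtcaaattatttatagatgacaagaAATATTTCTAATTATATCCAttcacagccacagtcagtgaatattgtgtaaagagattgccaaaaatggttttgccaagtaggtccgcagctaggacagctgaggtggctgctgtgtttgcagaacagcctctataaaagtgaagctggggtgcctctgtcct

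Myh7, chr14:54994627-54994876, minus strand: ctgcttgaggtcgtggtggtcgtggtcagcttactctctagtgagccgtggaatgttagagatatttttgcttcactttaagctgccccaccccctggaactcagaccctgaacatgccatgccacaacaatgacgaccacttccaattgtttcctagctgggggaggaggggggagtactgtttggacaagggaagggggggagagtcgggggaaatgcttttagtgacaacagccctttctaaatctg

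The shared run of 20 bases, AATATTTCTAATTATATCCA, began 163 bases before the start site of Myh4, 165 before that of Myh1 and 130 before that of Myh2. On either strand it was found in 3 of 32817 RefSeq promoter windows (0.00914%), those of the 3 fast genes, and not in the windows of Myh7. The TATA motif TATAAA, which 12.4% of all windows held, began 31 bases before the start site in Myh4 and 32 bases before it in Myh1. It was also found farther upstream in these windows, at 179 and 213 bases in Myh4 and at 208 bases in Myh1, and was not found in Myh2 or Myh7. The GR half-site AGAACA (16.1% of all windows) was found in Myh4 alone among the 4 genes, 42 bases upstream. The E-box CANNTG (66.2% of all windows) was found at 221 and 67 bases in Myh4 and at 106 bases in Myh7. Myh7 has a second RefSeq start site (54994549), whose window is not printed and held E-boxes at 183 and 62 bases. The letters TCAGGTT (3.5%), CATTCCT (4.50%) and AGATAA (9.99%), which stand for sites known as MEF3, MCAT and GATA, were in none of the 4 windows. Both strands were searched for every motif, and no matches overlapped. A match of letters is a description and not a binding site.

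The libraries held between 19394572 and 20357253 expected counts, and 15417 to 16025 symbols were above 0. Nr3c1 was measured first as the deleted gene. Its level was 113 CPM, the share of a library's counts scaled to 1000000, in GRf/f vehicle (95% interval 108 to 117), 90.4 in GRf/f CORT (86.3 to 94.8), 46.4 in GRmKO vehicle (43.5 to 49.5) and 35.5 in GRmKO CORT (33.0 to 38.1). Both GRmKO libraries were lower than both GRf/f libraries, at 41.2% of GRf/f under vehicle and 39.2% under CORT. These values cover the whole transcript and all cells of the muscle, and the deleted exon was not measured on its own. All 5 myofibre markers (Acta1, Ckm, Des, Ttn and Neb) were high, with a sum of 67210, 58109, 48847 and 56503 CPM in GRf/f vehicle, GRf/f CORT, GRmKO vehicle and GRmKO CORT, the order used below unless groups are named. Markers of other cells differed between libraries. The 4 macrophage markers summed to 347 CPM in GRmKO vehicle against 89.1 to 130 in the other libraries. The 4 fibroblast markers summed to 1415, 474, 2093 and 681 CPM and were thus lower with CORT in both genotypes. GRmKO CORT was the highest library for the 6 hepatocyte markers (263 CPM against 6.07 to 78.8) and the 4 erythroid markers (2462 CPM against 767 to 1324). In bulk muscle, fewer fibres of a type and less myosin RNA per fibre cannot be told apart. Intervals below are Wilson intervals for levels and shares and exact Clopper-Pearson intervals for ratios, and cover counting error only, not differences between mice or pools.

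Myh4 was by far the most abundant of the 4 genes, and its level differed between the 4 pools. It stood at 35764 CPM in GRf/f vehicle (95% interval 35682 to 35846), 30831 in GRf/f CORT (30754 to 30908), 15392 in GRmKO vehicle (15338 to 15446) and 25114 in GRmKO CORT (25046 to 25182). The GRmKO vehicle library was the lowest and GRf/f vehicle the highest, with 2.32-fold between them, and no intervals overlapped. By level, Myh4 ranked 3rd, 5th, 11th and 8th among all entries of the respective libraries.

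In CPM, Myh1 separated by genotype more than by treatment. Its level was 1688 CPM in GRf/f vehicle, 1579 in GRf/f CORT, 1047 in GRmKO vehicle and 1016 in GRmKO CORT. Both GRmKO libraries were lower than both GRf/f libraries, and the span from lowest to highest was 1.66-fold.

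In CPM, Myh2 was lower with CORT in both genotypes and lower in GRmKO in both treatments. Its level was 1394 CPM in GRf/f vehicle, 1086 in GRf/f CORT, 1030 in GRmKO vehicle and 820 in GRmKO CORT, a span of 1.70-fold. GRf/f CORT and GRmKO vehicle lay close together, though their intervals (1072 to 1101 and 1017 to 1045 CPM) did not overlap.

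Myh7 was the least abundant, and 1 library carried its variation. Its level was 180 CPM in GRf/f vehicle (174 to 186), 204 in GRf/f CORT (198 to 210), 393 in GRmKO vehicle (384 to 402) and 178 in GRmKO CORT (172 to 183). GRmKO vehicle, where Myh4 was lowest, was highest for Myh7, while GRf/f vehicle and GRmKO CORT could not be separated by counting error. Its rank among all entries was 542nd, 443rd, 191st and 545th.

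**Figure D1:**
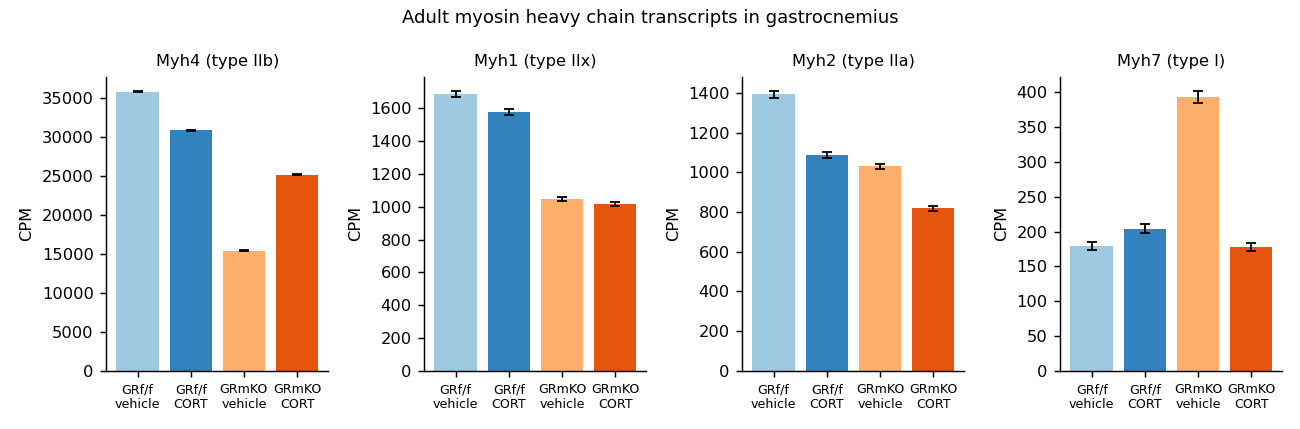
Level (CPM, linear axis from 0, own scale for each gene) of the 4 adult myosin genes in the 4 gastrocnemius libraries, 1 bar per library, with error bars giving the 95% Wilson interval of counting error. Myh4 was lowest (15392 CPM) and Myh7 highest (393 CPM) in the GRmKO vehicle library.

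The order of levels per kilobase was Myh4, Myh1, Myh2, Myh7 in all 4 libraries. The gap between the ends was wide. On the scale of CPM per kilobase Myh4 exceeded Myh7 203-fold in GRf/f vehicle, 154-fold in GRf/f CORT, 39.9-fold in GRmKO vehicle and 144-fold in GRmKO CORT. The neighbours Myh1 and Myh2 were close, with Myh2 at 82.5%, 68.7%, 98.3% and 80.6% of Myh1 per kilobase. In GRmKO vehicle the interval of this ratio (96.4 to 100.2%) included equality, so the order of Myh1 and Myh2 was not resolved there even within counting error.

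As shares of their own sum, the 4 genes had nearly the same make-up in 3 libraries and another in GRmKO vehicle. The share is independent of the library total. Myh4 took 91.6% (91.6 to 91.7%) in GRf/f vehicle, 91.5% (91.4 to 91.6%) in GRf/f CORT, 86.2% (86.1 to 86.3%) in GRmKO vehicle and 92.6% (92.5 to 92.6%) in GRmKO CORT. All that was not Myh4 made up 8.36%, 8.51%, 13.8% and 7.42% of the sum.

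Each of the other isoforms had its largest share in GRmKO vehicle. The share of Myh1 was 4.32%, 4.68%, 5.86% and 3.75%, and that of Myh2 was 3.57%, 3.22%, 5.77% and 3.02%. The share of Myh7 was 0.460%, 0.605%, 2.20% and 0.655%. As a ratio, GRmKO vehicle thus stood farther from the other libraries for Myh7 than for Myh1 or Myh2. In percentage points the gap to the next library was larger for Myh2 than for Myh7. The shares of Myh1 and Myh2 were larger in GRmKO vehicle than in GRf/f vehicle although their levels in CPM were lower, because the sum itself was smaller. The 4 genes together made up 3.90% of all counts in GRf/f vehicle, 3.37% in GRf/f CORT, 1.79% in GRmKO vehicle and 2.71% in GRmKO CORT.

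**Figure D2:**
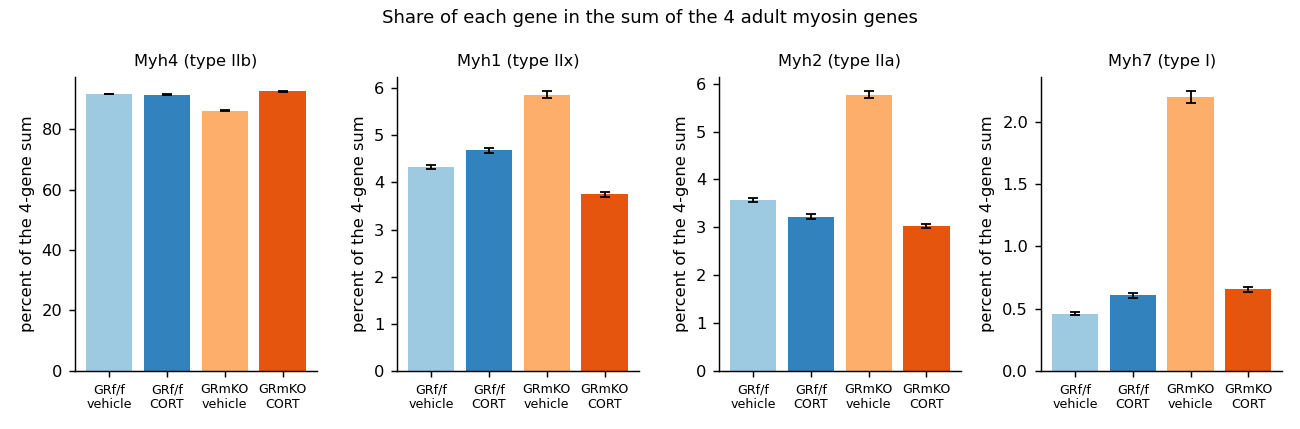
Share of each gene in the summed counts of the 4 adult myosin genes (percent, axis from 0, own scale for each gene), 1 bar per gastrocnemius library, with 95% Wilson intervals of counting error. The share of Myh4 was 86.2% in GRmKO vehicle and 91.5 to 92.6% in the other libraries, and the other 3 genes had their largest shares in GRmKO vehicle.

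Changes are given as log2 differences of CPM + 0.5, and a gene is called when the difference is at least 2-fold. The 13543 genes above 0 in all 4 libraries served as the background. The comparisons share libraries, so their values stand side by side and are not independent of each other. In GRf/f mice, CORT was accompanied by small differences in the adult myosins. Relative to vehicle, Myh4 was at 86.2% (log2 difference −0.21, interval −0.22 to −0.21), Myh1 at 93.5% (−0.10, with a sign that changed under 2 other scalings) and Myh2 at 78.0% (−0.36). Myh7 was at 114% (0.18, 0.12 to 0.25). Relative to the summed myofibre markers the difference of Myh4 was −0.0042. None of the 4 genes passed 2-fold in this comparison, in which 7.97% of all tested genes did, and the median difference was −0.16 over the 4 genes and −0.08 over all tested genes.

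In GRmKO mice the fastest and the slowest isoform moved apart with CORT. Myh4 was 1.63-fold higher in GRmKO CORT than in GRmKO vehicle (0.71, 0.70 to 0.71), and Myh7 was at 45.2% of its vehicle level (−1.14, −1.20 to −1.09). Myh1 was at 97.0% (−0.04, of changing sign under other scalings) and Myh2 at 79.5% (−0.33). Of the 4 genes 1, Myh7, passed 2-fold, downward, against 6.53% of all tested genes in either direction and 5.02% downward. Among the 1032 genes with a mean of at least 100 CPM, the range in which all 4 myosins lie, 2.33% passed. The call of Myh7 was lost with library factors from edgeR's TMM method, where its difference was −0.99.

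Set side by side, the CORT differences of Myh4 and Myh7 had opposite signs in the 2 genotypes. The CORT difference in GRmKO minus that in GRf/f was 0.92 for Myh4 (interval 0.91 to 0.93) and −1.33 for Myh7 (−1.42 to −1.24). It was 0.05 for Myh1 (0.02 to 0.09) and 0.03 for Myh2 (−0.01 to 0.07). For Myh2 this interval included 0. These intervals hold for the pools sequenced, and a difference between genotypes over mice was not tested. The values also depend on the scale. Relative to the summed myofibre markers the CORT differences in GRf/f and GRmKO were 0.11 and −0.25 for Myh1 and −0.15 and −0.54 for Myh2, farther apart than in CPM. For Myh4 they were −0.0042 and 0.50, closer together than in CPM.

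Under vehicle, GRmKO muscle had less of the 3 fast isoforms in CPM, and more of the slow isoform, than GRf/f muscle. Myh4 was at 43.0% of GRf/f (−1.22, −1.22 to −1.21), Myh1 at 62.1% (−0.69) and Myh2 at 73.9% (−0.44). Myh7 was 2.19-fold higher (1.13, 1.07 to 1.19). The differences were thus ordered as the isoforms are by speed, from the fastest to the slowest. Of the 4 genes 1 passed 2-fold upward and 1 downward, against 7.77% of all tested genes in either direction, 4.59% upward and 3.18% downward. The summed myofibre markers were also lower in GRmKO vehicle than in GRf/f vehicle. Relative to that sum the difference of Myh4 was −0.76, short of 2-fold, that of Myh1 was −0.23, that of Myh2 was 0.02 and that of Myh7 was 1.59. In this comparison the macrophage and fibroblast sums, given above, were higher in GRmKO. So were the hepatocyte (78.8 against 6.07 CPM) and erythroid (1324 against 796 CPM) sums, while the Schwann cell sum, given below, was lower. The macrophage sum was lower with CORT in GRmKO (130 against 347 CPM), and the fibroblast sum with CORT in both genotypes. The hepatocyte and erythroid sums also moved in the comparisons that use GRmKO CORT. The part of these sums in the results was not tested.

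Under CORT, the 4 myosins were all lower in CPM in GRmKO than in GRf/f, though Myh7 was not (0.03) relative to genes of its transcript length. Myh4 was at 81.5% (−0.30, −0.30 to −0.29), Myh1 at 64.4% (−0.64), Myh2 at 75.4% (−0.41) and Myh7 at 87.1% (−0.20, −0.26 to −0.13). None passed 2-fold, against 9.71% of all tested genes. This comparison and that of CORT in GRf/f do not use the GRmKO vehicle library, and the 2 calls of Myh7 and the call of Myh4 all rest on that library. In CPM the differences of Myh1 and Myh2 between genotypes were of similar size under vehicle and under CORT. Relative to the summed myofibre markers they were not, at −0.23 under vehicle and −0.59 under CORT for Myh1 and 0.02 and −0.37 for Myh2.

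**Figure D3:**
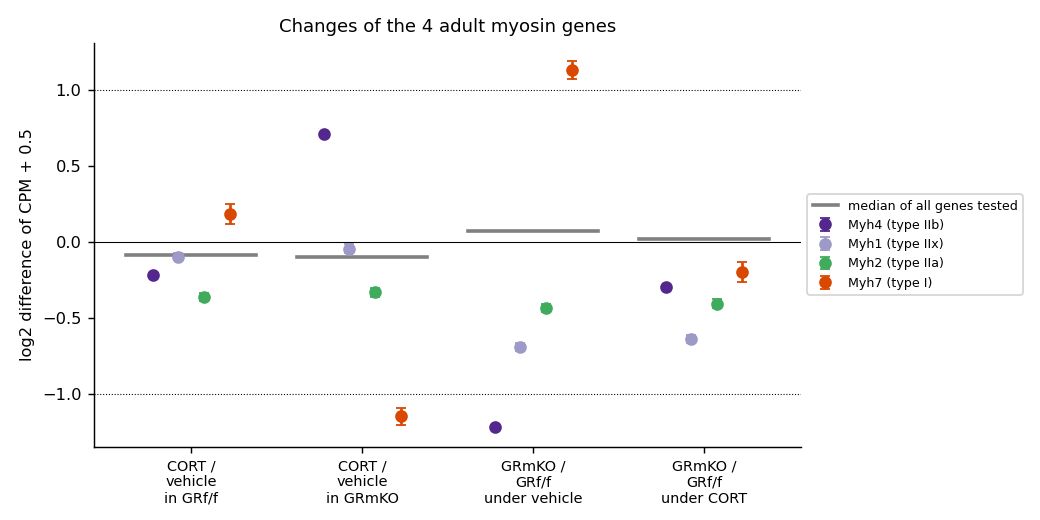
Log2 difference of CPM + 0.5 (vertical axis) of the 4 adult myosin genes in the 4 comparisons, with 95% exact intervals of counting error (narrower than the symbol for Myh4), dotted lines at 2-fold and grey lines at the median of all 13543 tested genes. Myh4 and Myh7 lay on opposite sides of 0 in 3 of the 4 comparisons, and farthest apart under vehicle (−1.22 and 1.13).

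Differences between genotypes also varied with transcript length, which bears on the myosins because their transcripts are long. Under vehicle the median log2 difference of GRmKO against GRf/f fell from 0.39 over the 892 tested genes of up to 1000 bases to −0.12 over the 790 genes of 5500 to 6500 bases and −0.26 over the 1314 longer genes. Under CORT the same medians were 0.52, −0.22 and −0.34. Within a genotype the medians for CORT against vehicle were −0.17, −0.04 and −0.01 in GRf/f and −0.03, −0.11 and −0.08 in GRmKO, so the spread over lengths was smaller. The source of this dependence was not tested.

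Set against the median of genes of 5500 to 6500 bases, which hold all 4 myosins, the vehicle differences remained past 2-fold for Myh4 (−1.09) and Myh7 (1.25) and were −0.57 for Myh1 and −0.31 for Myh2. Under CORT they were −0.07 for Myh4, −0.41 for Myh1, −0.18 for Myh2 and 0.03 for Myh7. On that scale Myh4 and Myh7 thus stood close to other genes of their length in GRmKO CORT against GRf/f CORT. For CORT in GRmKO they were 0.82 for Myh4 and −1.03 for Myh7.

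**Figure D4:**
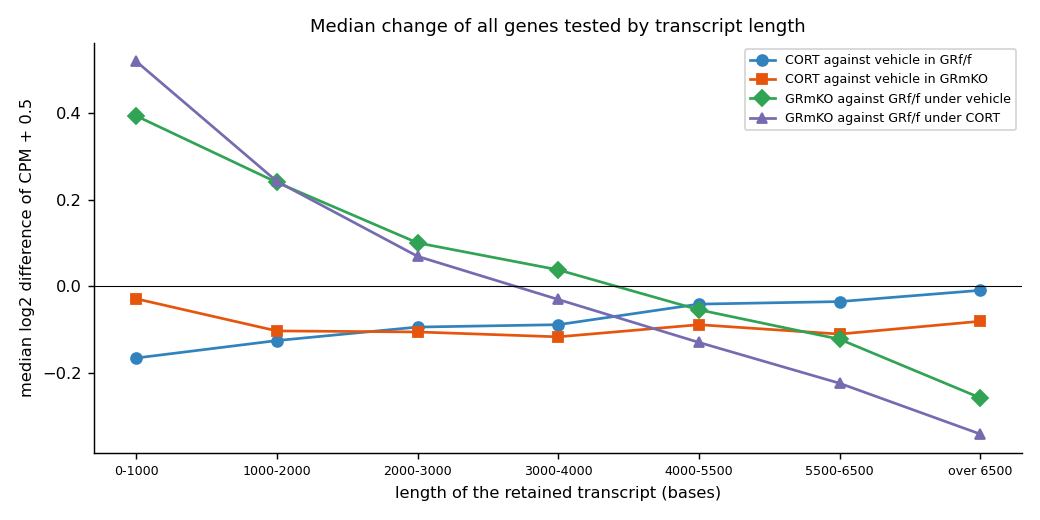
Median log2 difference of CPM + 0.5 over all tested genes (vertical axis) by the length of the retained transcript in bases (horizontal axis, 7 classes), 1 line per comparison, with no error bars. The medians of both genotype comparisons fell with length, to −0.12 under vehicle and −0.22 under CORT in the class of 5500 to 6500 bases that holds the 4 myosins.

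The proteins that work beside the myosins exist in fast and slow forms too, and lists of both were compared. The slow partners, 12 genes of the slow thin filament, light chains and calcium handling, had their highest levels mostly in the library where Myh7 was highest. In GRmKO against GRf/f under vehicle 9 of 12 were higher by at least 2-fold, none was lower, and the list median was 1.27, against 4.59% of all tested genes and a median of 0.07. The largest differences were those of Tnnc1, the calcium-binding troponin of slow and cardiac muscle (38.3 CPM in GRf/f vehicle, 44.5 in GRf/f CORT, 178 in GRmKO vehicle, 78.1 in GRmKO CORT; difference 2.20), and Tpm3, slow tropomyosin (51.3, 44.4, 224 and 96.7 CPM; 2.12). Next came the slow troponins Tnnt1 (27.8, 30.5, 103 and 53.2 CPM; 1.87) and Tnni1 (33.0, 42.2, 114 and 60.9 CPM; 1.78). In each of these genes GRmKO vehicle was the highest library and GRmKO CORT the next. Mybpc1, slow myosin-binding protein C, did not pass (−0.17), nor did the Z-disc gene Myoz2 (0.25) or Pln, the inhibitor of the slow calcium pump (0.41, at 3.86 CPM or less in every library). With other library factors, the myofibre scale or subtraction of the median of each gene's own length class, 7 to 9 of the 12 genes passed upward.

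With CORT in GRmKO mice the slow partners were lower. All 12 differences were negative, the median was −0.84 against −0.10 over all tested genes, and 3 of 12 passed 2-fold downward (Tpm3 −1.21, Tnnc1 −1.18 and Pln −1.05), against 5.02% of all tested genes. With edgeR's TMM factors 10 of the 12 were negative and 2 passed, and relative to the myofibre markers all 12 were negative and 6 passed. In comparisons without the GRmKO vehicle library, the slow partners differed less. Under CORT 2 of 12 passed upward in GRmKO against GRf/f (Tpm3 1.11, Myl3, a slow light chain, 1.04), against 4.4% of all tested genes, with a median of 0.54. Neither passed once the median of the own length class was subtracted. For CORT in GRf/f none passed upward and Pln passed downward (at 40.9% of vehicle, from 2.77 to 1.13 CPM), against 3.26% of all tested genes upward and 4.72% downward, with a list median of 0.17. The call of Pln was lost, and 1 other gene passed upward, under each of the 4 other scalings.

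The fast partners, 13 genes, had list medians closer to 0 than the slow ones in all 4 comparisons. Their range was not narrower in the 2 comparisons that do not use the GRmKO vehicle library. They spanned −1.78 to 0.98 for CORT in GRf/f, and −1.37 to 1.70 in GRmKO against GRf/f under CORT, where the slow partners spanned −0.78 to 1.11. In GRmKO against GRf/f under vehicle their median was −0.21, 9 of 13 were lower, and only Mylpf, the fast regulatory light chain, passed (1.02, upward). Of all tested genes 4.59% passed upward and 3.18% downward there. The call among the fast partners depended on the scale. With TMM factors none passed upward and 1 downward (median −0.29), relative to genes of the same length class none upward and 1 downward (median −0.34, 12 of 13 lower), and relative to the summed myofibre markers 1 upward and none downward (median 0.25, 3 of 13 lower). Atp2a1, the fast calcium pump, was at 27403, 38461, 18904 and 23839 CPM, and its difference there was −0.54. Actn3, the fast-fibre actinin, was at 7144, 11768, 4792 and 6186 CPM, with a difference of −0.58. The transcripts of fast partners (median 1208 bases) and slow partners (1122 bases) were of like length, in the class of 1000 to 2000 bases by their medians, where the median difference of GRmKO against GRf/f over all tested genes was 0.24 under vehicle and 0.24 under CORT.

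For CORT in GRmKO all 13 fast partners were higher, by 0.01 to 0.46 (median 0.19 against −0.10 over all tested genes), and none passed 2-fold, against 1.51% of all tested genes upward. The direction depended on the scale, since 6 of 13 were higher and 7 lower relative to the summed myofibre markers. In GRf/f with CORT Myl1, the fast essential light chain, passed downward (−1.78, from 9937 to 2884 CPM), alone of the 13 on the CPM scale. Of all tested genes 4.72% passed downward and 3.26% upward there. Under each of the other scalings 1 or 2 fast partners also passed upward. Under CORT in GRmKO against GRf/f Myl1 passed upward (1.70) and Mylk2, the kinase of the fast regulatory light chain, downward (−1.37), against 4.4% of all tested genes upward and 5.31% downward. The level of Myl1 was 7925 and 9363 CPM in the GRmKO libraries, so GRf/f CORT was the single low library.

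**Figure D5:**
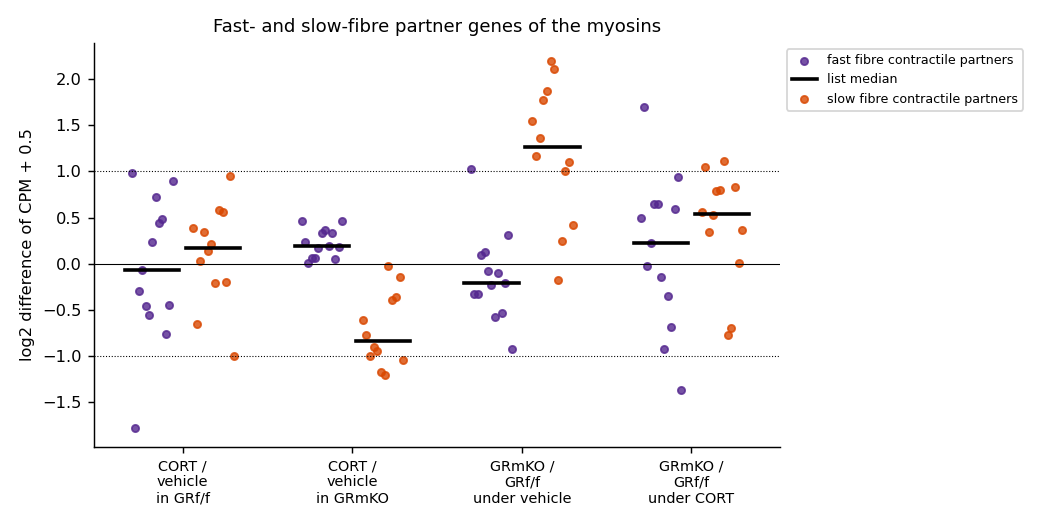
Log2 difference of CPM + 0.5 (vertical axis) of 13 fast and 12 slow fibre contractile partner genes in the 4 comparisons, 1 point per gene, black lines at list medians and dotted lines at 2-fold. The slow list had a median of 1.27 in GRmKO against GRf/f under vehicle and of −0.84 for CORT in GRmKO.

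Other myosin heavy chains were scarce or were non-muscle and smooth muscle forms. Of 10 listed, 5 were above 0 in all 4 libraries. Myh8, the perinatal isoform, was at 1.74, 1.08, 4.95 and 1.38 CPM, and was the only one to pass, upward in GRmKO against GRf/f under vehicle (1.28) and downward for CORT in GRmKO (−1.54), against 4.59% and 5.02% of all tested genes. Myh3, the embryonic isoform, was at 5.11 CPM in GRf/f CORT and 8.58 in GRmKO vehicle and was listed at 0 in GRf/f vehicle and GRmKO CORT. Myh10, a non-muscle form, was at 22.4 and 41.8 CPM in the GRf/f libraries and was listed at 0 in both GRmKO libraries. Myh15 was listed at 0 in all 4 libraries.

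Most regulators of fibre type that were examined did not pass 2-fold, nor did most tested genes, of which 6.53 to 9.71% passed in a comparison. Sox6, which represses slow genes, was at 114, 110, 88.2 and 99.1 CPM and did not pass in any comparison. Of 13 regulators linked to slow or oxidative fibres, Esrrg, an oestrogen-related receptor, passed upward in GRmKO against GRf/f under vehicle (1.65). The share of all tested genes passing upward there was 4.59%. Esrrg was at 6.19, 11.96, 20.6 and 18.0 CPM. Ppargc1a, the coactivator of mitochondrial genes, did not pass in any comparison (64.6, 40.2, 34.6 and 34.5 CPM).

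In the metabolic and chaperone lists the calls are read against the shares of all tested genes, 3.26% upward and 4.72% downward for CORT in GRf/f and 4.4% upward and 5.31% downward in GRmKO against GRf/f under CORT. Of 9 oxidative genes, none passed in either comparison that uses the GRmKO vehicle library. Of all tested genes 7.77% passed for genotype under vehicle and 6.53% for CORT in GRmKO, so a list of 9 without a call is near those shares. Cd36, a fatty acid transporter, passed upward for CORT in GRf/f (1.16), where the adipocyte marker sum was also higher (589 against 232 CPM). The part of adipocytes in this was not tested. Of 9 glycolytic genes, Pgam2, muscle phosphoglycerate mutase, passed downward for CORT in GRf/f (−1.30) and upward in GRmKO against GRf/f under CORT (1.26). Its level was 2092, 850, 1764 and 2028 CPM, with GRf/f CORT as the low library. Of 6 genes of myosin folding and assembly, Hsp90aa1 passed upward for CORT in GRf/f (2.24) and downward in GRmKO against GRf/f under CORT (−1.20), at 53.7, 256, 59.6 and 111 CPM.

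Genes whose pattern over the 4 libraries was closest to each myosin were sought among 7136 genes with a mean of at least 10 CPM, by the root mean square difference of log2 values centred on their mean. For Myh4 they were Msh3 (0.05), Rfx7 (0.05) and Vegfa (0.06). For Myh1 they were Kif13b, Tmem181a and Kmt2c (0.03 each), and for Myh2 Klf9 (0.02), Ccdc71l (0.03) and Mtss1 (0.03). For Myh7 they were Colec12 (0.05), Ep400 (0.09) and Grb2 (0.10). By this measure Myh1 was the 296th closest gene to Myh4, Myh2 the 1562nd and Myh7 the 6752nd. With 4 libraries such likeness is a description of these pools.

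The reads of the 4 genes are hard to assign, which limits the levels above. Of the runs of 31 bases in the retained transcript, 98.3% in Myh4, 100% in Myh1, 100% in Myh2 and 98.2% in Myh7 also occur in another coding transcript of the same gene. In a transcript of another gene occur 30.4%, 40.2%, 39.0% and 32.4%. Between the fast genes, Myh4 shares 19.4% of its runs with Myh1 and 17.2% with Myh2, and Myh1 shares 28.4% with Myh2. Each fast gene shares under 1% with Myh7, at 0.70%, 0.57% and 0.43% for Myh4, Myh1 and Myh2. The slow isoform is thus well separated from the fast ones by sequence, whereas the split of reads among the fast genes and among transcripts of 1 gene is uncertain and was not tested.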

How the data were processed

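Total RNA from 12 pools of gastrocnemius, liver and gonadal white adipose tissue was sequenced by the authors, and the 4 gastrocnemius libraries were used here, with the other 8 only for levels of the 4 myosins. Per the methods, Salmon 1.2.1 assigned reads to coding transcripts of GENCODE M20 (mm10), and its output was imported in R 3.5.0 with tximport on the length-scaled scale. The deposited values are expected counts, with no scaling between libraries. Of entries with the same symbol the authors retained that with the highest total. An entry was therefore read as 1 transcript, although it was not settled if sums over genes had been made before that step. Each value depends on how reads were shared among similar transcripts. The study's own method for pools compares with simulated samples and was not used.

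Counts were divided by the library total to give CPM, and log2 differences were taken of CPM + 0.5. Counts were rounded for intervals (95%). A count of 0 allows up to 3 counts, or 0.147 to 0.155 CPM. All 13543 genes above 0 in the 4 libraries were tested against a 2-fold threshold, with no p-value, since each group had 1 library. Alternatives were TMM factors (edgeR 4.0.16), median-of-ratios factors (DESeq2 1.42.0), the summed myofibre markers, a pseudocount of 1, a 1.5-fold threshold, a filter at a mean of 1 CPM, no filter and, chosen after the data were seen, the median of genes of like transcript length. The alternatives for the fast and slow partner lists were all chosen after the data were seen. Gene models came from GENCODE M21, where all 22273 transcripts were found. Promoters came from RefSeq (GRCm38.p6). The calculations were tested on simulated data (Python 3.11.15). The members and lists were chosen with earlier results of these data known. Named genes were the 4 members, Nr3c1, the up to 4 largest differences past 2-fold per list and comparison with up to 4 examples that did not pass, and the 3 genes most like each member. Some results for regulators linked to fast fibres are not reported here.

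Of the 10 marker lists, the sums not given in full above were, in GRf/f vehicle, GRf/f CORT, GRmKO vehicle and GRmKO CORT, 232, 589, 333 and 455 CPM for adipocyte markers, 242, 221, 267 and 181 for endothelial, 323, 161, 176 and 154 for Schwann cell, 233, 280, 246 and 213 for smooth muscle, and 9.77, 6.95, 13.5 and 9.99 for satellite cell markers. Cidec, an adipocyte marker, was listed at 0 in GRmKO vehicle.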

Additional observations from a re-analysis of the deposited data

Results flagged for a closer look

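Myh4 differed with CORT by −0.21 on the log2 scale in GRf/f and by 0.71 in GRmKO, opposite in sign. Myh7 differed with CORT by 0.18 in GRf/f and by −1.14 in GRmKO, also opposite in sign, and with genotype by 1.13 under vehicle and by −0.20 under CORT. Each value compares 1 pool with 1 pool, and none of these differences between comparisons was tested over mice.

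The myosins were also read in liver and white adipose tissue (WAT), where they were above the limit that a count of 0 allows in some libraries. Myh4 was at 2.80 CPM in WAT GRf/f vehicle, 0.452 in WAT GRf/f CORT, 0.355 in WAT GRmKO vehicle, 0.405 in liver GRmKO CORT, 0.143 in liver GRf/f vehicle and 0.195 in liver GRf/f CORT. Myh1 was at 0.506 CPM in liver GRmKO CORT, 0.310 in WAT GRf/f vehicle, 0.201 in WAT GRf/f CORT, 0.354 in WAT GRmKO vehicle and 0.198 in WAT GRmKO CORT. Myh2 was at 0.335 CPM in liver GRmKO CORT, 0.301 in WAT GRf/f vehicle and 0.253 in WAT GRmKO vehicle. In these tissues the retained transcripts of Myh4 and Myh1 were other than in gastrocnemius, and a source of these reads was not tested.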

How the results depend on the processing

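No paired analysis was possible because each group had 1 library and the labels give no replicate numbers, and for the same reason no library could be left out of a group. Of 80 log2 differences of single myosins under alternatives, 73 kept their sign. The 7 that did not were Myh1 for CORT in GRf/f (0.01 with median-of-ratios factors, 0.11 relative to myofibre markers), Myh1 for CORT in GRmKO (0.11 with TMM, 0.10 with median-of-ratios factors, 0.07 relative to genes of like length), Myh2 in GRmKO against GRf/f under vehicle (0.02 relative to myofibre markers) and Myh7 in GRmKO against GRf/f under CORT (0.03 relative to genes of like length). The number of adult myosins past the threshold for CORT in GRmKO was 0 with TMM and 2 at 1.5-fold, in GRmKO against GRf/f under vehicle 1 relative to myofibre markers, and in GRmKO against GRf/f under CORT 1 at 1.5-fold. Over all tested genes, 1080, 885, 1052 and 1315 passed 2-fold (CORT in GRf/f, CORT in GRmKO, genotype under vehicle, genotype under CORT) and 3058, 2557, 3255 and 3757 passed 1.5-fold. Without the filter on genes at 0, 1401 passed for CORT in GRmKO and 1621 for genotype under vehicle. Of the calls, 40.8% were upward for CORT in GRf/f (48.7% with TMM, 51.2% with median-of-ratios factors) and 23.2% for CORT in GRmKO (34.9% and 34.0%). The myofibre scale moved the median of all tested genes to 0.10, −0.29, 0.48 and 0.06, and TMM moved it for CORT in GRmKO from −0.10 to 0.04. Fast partners past 2-fold for CORT in GRf/f numbered 1, against 2 with TMM, 3 with median-of-ratios factors, 3 relative to myofibre markers and 2 relative to genes of like length, and for genotype under vehicle 0 with median-of-ratios factors. Slow partners past 2-fold numbered 6 for CORT in GRmKO relative to myofibre markers and 0 for genotype under CORT relative to genes of like length. The share of Myh4 moved by less than its interval under the alternatives run.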
